A study of Mus musculus with 4 samples.

Results

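The genes of the mitogen-activated protein (MAP) kinase cascades were examined for accessible DNA in CD8+ T cells from mice of the Balb/c strain. The set was every protein-coding gene on chromosomes 1 to 19 and X whose symbol begins Map2k, Map3k, Map4k, Mapk or Mapkapk, and it held 54 of 21631 genes. It comprised 5 Map4k genes, 18 Map3k genes, 7 Map2k genes, 13 Mapk genes and 3 Mapkapk genes. The other 8 carry such a symbol without being kinases of the cascade, such as the JNK scaffold genes Mapk8ip1 to Mapk8ip3 and Mapkap1, which encodes the mTORC2 subunit SIN1.

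Accessible DNA was mapped by ATAC-seq, in which the Tn5 transposase cuts and tags open chromatin. The 4 conditions were stimulated cells with phenelzine, stimulated cells without it, unstimulated cells with phenelzine, and unstimulated untreated cells, with 1 library each and no replicates. Stimulated cells had received PMA, a phorbol ester, together with the calcium ionophore ionomycin for 2 h. Phenelzine is an antidepressant that blocks monoamine oxidases and also acts on LSD1, a histone demethylase of the same enzyme family. The series title calls the cells tumour-infiltrating, while the sources used here do not give the tumour, the purity of the cells or the dose and time of phenelzine.

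MAP kinase cascades pass a signal down tiers of kinases. A MAP4K or a small GTPase activates a MAP3K, the MAP3K phosphorylates a MAP2K, and the MAP2K phosphorylates a MAP kinase of the ERK, JNK, p38 or ERK5 family, which acts on transcription factors and on kinases such as the MAPKAPKs. In T cells these cascades run below the antigen receptor, and PMA reaches the ERK branch through RasGRP and protein kinase C.

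The result deposited for each library was a list of broad peaks, called on that library alone. The lists held 9331 peaks for stimulated phenelzine, 10414 for stimulated untreated, 7938 for unstimulated phenelzine and 6525 for unstimulated untreated cells. No read totals are in the lists, so depth is unknown. The labelled cell type could be checked only in part against marker genes. Over all genes 58.1% had a region nearby in some list. Of 9 CD8 T cell marker genes 6 had one, but Cd8a, Cd8b1 and Zap70 had none in any list. Regions near these 9 summed to 4 in stimulated phenelzine, 8 in stimulated untreated, 6 in unstimulated phenelzine and 4 in unstimulated untreated cells. In this sum and those below, a region near 2 marker genes is counted for both. Near 6 myeloid markers, of which 4 had a region and Itgam and Csf1r had none, the sums were 8 in stimulated phenelzine, 6 in stimulated untreated, 6 in unstimulated phenelzine and 5 in unstimulated untreated cells. Near 5 B cell markers, of which 2 had a region and Pax5, Cd79b and Ms4a1 had none, the sums were 2 in stimulated phenelzine, 4 in stimulated untreated, 3 in unstimulated phenelzine and 4 in unstimulated untreated cells. Near 4 CD4 and regulatory T cell markers, of which 3 had a region and Ctla4 had none, the sums were 3 in stimulated phenelzine, 4 in stimulated untreated, 3 in unstimulated phenelzine and 2 in unstimulated untreated cells. Near 4 NK cell markers, of which 1 had a region and Klre1, Ncr1 and Eomes had none, the sums were 1 in each stimulated list and 0 in each unstimulated list. Near 4 epithelial markers, of which 2 had a region and Krt18 and Epcam had none, the sums were 2 in stimulated phenelzine, 1 in stimulated untreated, 0 in unstimulated phenelzine and 0 in unstimulated untreated cells. The part of such cells in the results was not tested, and in bulk libraries fewer cells of a type and less accessible DNA per cell cannot be told apart.

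Promoter sequences of 42 of the 54 genes were in the RefSeq-derived table (GRCm38.p6), each running from 250 bases before to 50 bases after a start site. The 6 printed here each had a peak in 3 or 4 lists, whereas 30 of the 56 windows of these genes had no peak. Map4k1 and Mapk14 had a peak over the window in all 4 libraries, Mapk6 in all but unstimulated untreated cells, Map2k1 and Mapk8 in all but unstimulated phenelzine cells, and Mapk9 in all but stimulated phenelzine cells. Capitals mark the bases that lay under a peak in every list with a peak there. The windows are chr7:28981800-28982099 (plus strand) for Map4k1, chr17:28691092-28691391 (plus) for Mapk14, chr9:75409967-75410266 (minus) for Mapk6, chr9:64253556-64253855 (minus) for Map2k1, chr14:33447109-33447408 (minus) for Mapk8 and chr11:49846501-49846800 (plus) for Mapk9.
Map4k1: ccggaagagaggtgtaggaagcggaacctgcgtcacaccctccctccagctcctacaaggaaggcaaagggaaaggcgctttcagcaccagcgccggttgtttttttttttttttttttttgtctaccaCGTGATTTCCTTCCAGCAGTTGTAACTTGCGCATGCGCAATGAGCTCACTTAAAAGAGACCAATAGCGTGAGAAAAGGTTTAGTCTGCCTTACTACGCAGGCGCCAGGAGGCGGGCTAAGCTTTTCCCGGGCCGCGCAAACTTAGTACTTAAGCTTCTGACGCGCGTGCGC
Mapk14: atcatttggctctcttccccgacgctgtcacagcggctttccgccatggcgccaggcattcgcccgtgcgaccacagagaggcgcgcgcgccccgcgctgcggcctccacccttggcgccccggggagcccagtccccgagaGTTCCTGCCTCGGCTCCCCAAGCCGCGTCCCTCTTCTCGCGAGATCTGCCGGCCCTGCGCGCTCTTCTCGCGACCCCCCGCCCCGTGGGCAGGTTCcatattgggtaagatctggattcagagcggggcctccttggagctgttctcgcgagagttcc
Mapk6: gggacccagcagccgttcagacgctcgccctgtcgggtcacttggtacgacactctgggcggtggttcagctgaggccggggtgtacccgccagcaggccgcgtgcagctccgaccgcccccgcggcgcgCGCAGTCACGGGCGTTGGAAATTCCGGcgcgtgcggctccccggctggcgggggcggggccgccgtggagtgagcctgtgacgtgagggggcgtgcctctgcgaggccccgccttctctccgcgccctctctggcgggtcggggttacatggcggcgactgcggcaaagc
Map2k1: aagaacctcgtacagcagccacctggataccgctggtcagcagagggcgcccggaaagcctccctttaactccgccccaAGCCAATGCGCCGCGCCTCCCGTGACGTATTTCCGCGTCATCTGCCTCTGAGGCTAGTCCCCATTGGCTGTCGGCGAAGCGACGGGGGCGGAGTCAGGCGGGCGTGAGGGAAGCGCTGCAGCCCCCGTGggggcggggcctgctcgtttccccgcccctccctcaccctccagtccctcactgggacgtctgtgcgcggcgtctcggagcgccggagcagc
Mapk8: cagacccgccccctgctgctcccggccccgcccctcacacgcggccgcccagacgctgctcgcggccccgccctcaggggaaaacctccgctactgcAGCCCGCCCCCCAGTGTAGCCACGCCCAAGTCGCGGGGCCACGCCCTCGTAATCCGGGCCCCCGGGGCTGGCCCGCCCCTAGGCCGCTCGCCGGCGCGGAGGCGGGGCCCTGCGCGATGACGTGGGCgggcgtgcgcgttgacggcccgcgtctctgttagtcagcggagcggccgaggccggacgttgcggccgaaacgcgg
Mapk9: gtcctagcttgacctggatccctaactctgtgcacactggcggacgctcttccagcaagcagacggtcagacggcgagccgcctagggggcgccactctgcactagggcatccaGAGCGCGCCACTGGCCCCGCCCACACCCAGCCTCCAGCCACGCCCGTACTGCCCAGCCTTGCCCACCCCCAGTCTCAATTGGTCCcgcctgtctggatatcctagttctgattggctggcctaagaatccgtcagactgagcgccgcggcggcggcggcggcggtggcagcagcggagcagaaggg

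The stretch common to the lists was 171 bases in Map4k1, 96 in Mapk14, 27 in Mapk6, 129 in Map2k1, 127 in Mapk8 and 85 in Mapk9. Of the 56 member windows, counting alternative starts, 26 had a peak in at least 1 list, against 31.9% of all 21045 windows of protein-coding genes, and 12 in all 4, against 15.5%. The median GC content was 65.5% in windows with a peak and 62.3% in those without, against 56.7% over all windows. The SP/KLF letters GGGCGGG, searched on both strands, were in 27 of 56 member windows (48.2%) and in 34.2% of all windows. They were in 17 of the 26 member windows with a peak and in 10 of the 30 without, against 53.7% and 25.1% of all windows with and without a peak. Mapk8 held them 6 times, 2 of these within the capitals. The AP-1 letters TGANTCA were in 3 member windows (5.36% against 7.04% of all), the CRE letters TGACGTC in 1 (1.79% against 3.88%), the ETS letters CCGGAAG in 5 (8.93% against 11.7%) and the E-box CACGTG in 4 (7.14% against 7.91%). In Map4k1 the ETS letters lay at the first base of the window and the E-box at base 128, across the border of the capitals.

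A gene-end peak was a peak within 1 kb of either end of the gene. Such peaks were listed for 27 of the 54 genes in stimulated phenelzine cells (50%, exact 95% interval 36.1 to 63.9), against 27.4% of all protein-coding genes. The count was also 27 in stimulated untreated cells, against 29.3% of all genes. In unstimulated phenelzine cells it was 20 (37.0%, 24.3 to 51.3), against 25.6% of all, and in unstimulated untreated cells 24 (44.4%, 30.9 to 58.6), against 23% of all. The intervals cover counting error only. In the 4 lists cut to the same 6519 strongest peaks the counts were 23 in stimulated phenelzine, 22 in stimulated untreated, 19 in unstimulated phenelzine and 24 in unstimulated untreated cells, against between 23% and 23.7% of all genes. In the full lists the interval of the unstimulated phenelzine share includes the share of all genes, and the other 3 intervals lie above it.

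**Figure D1:**
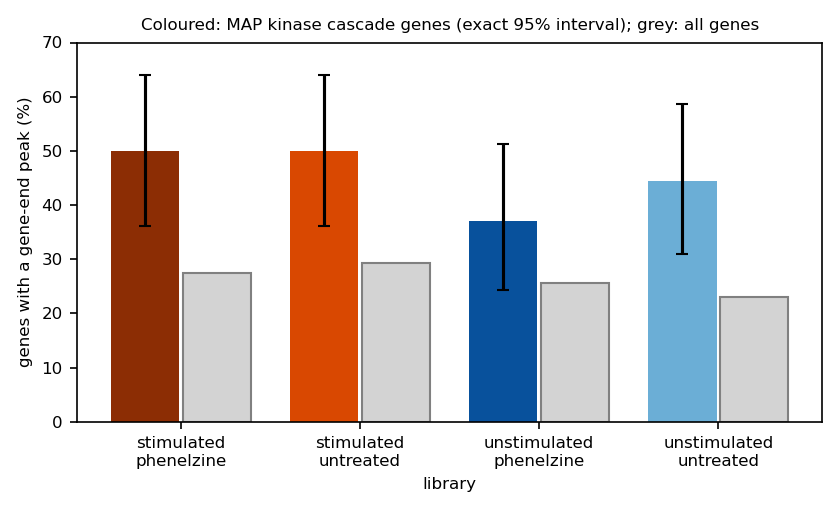
Share of genes with a peak within 1 kb of a gene end, in percent, by library. Coloured bars are the 54 MAP kinase cascade genes with exact 95% intervals, which cover counting error only, and grey bars are all 21631 protein-coding genes. The coloured bars run from 37.0% to 50%, above the grey bars at 23% to 29.3%.

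Across the libraries 14 genes had a gene-end peak in all 4 lists, 19 in some and 21 in none. Over all genes 17.7% had one in all 4 lists and 34.9% in any. The genes present throughout came from every tier, among them Map4k1, Map3k2, Map3k3, Map3k11, Map3k12, Map3k14, Map2k2, Map2k7, Mapk7, Mapk14, Mapkapk5, Mapkap1 and Mapkbp1. Of the 34 gene-end regions 8 also lay within 1 kb of the end of a gene outside the set, among them those of Map4k1 (with Eif3k), Mapk14 (with Slc26a8) and Map3k11 (with Pcnx3), so such a peak cannot be given to 1 gene. Of the 28 gene-end regions with a listed start site near the gene, 26 were within 1 kb of that start, and 23 had their centre upstream of it. The window border fell between a region of Map3k12, 904 bp outside the gene and counted, and a region of Map2k3, 1102 bp outside and not counted.

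**Figure D2:**
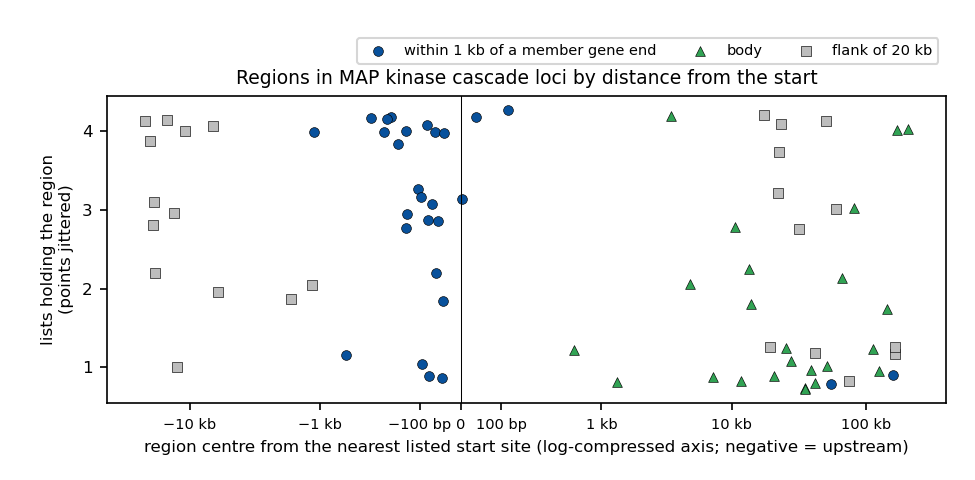
Distance of each region's centre from the nearest listed start site of the gene (x axis, log-compressed, upstream negative) and number of lists holding the region (y axis, jittered), for the 77 regions near a gene with a listed start. Of the 24 regions held by all 4 lists 11 lay within 500 bp of a start, and of the 26 held by 1 list 3 did. The same counts over all regions are not given here.

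Each gene was also given a wider locus, which took in the body and 20 kb beyond each end, and peaks of the 4 lists that overlapped by at least 1 bp were merged into regions. The 54 loci held 94 distinct regions, 34 at a gene end, 26 in a gene body and 34 in a flank. All 4 lists held 27 of these (28.7%, 19.9 to 39.0), against 26.8% of all 15237 regions, and 1 list alone held 33 (35.1%, 25.5 to 45.6), against 43.6%. Body regions differed from gene-end ones in this: 3 of 26 were in all 4 lists and 16 in 1 list, whereas 14 of 34 gene-end regions were in all 4 and 7 in 1 list. The same split over all regions is not given here, so whether it is particular to these loci is unknown. At least 1 region was found for 44 of the 54 genes, against 58.1% of all genes. These genes are longer than most, with a median body of 41.8 kb against 17.3 kb, and the part of length in this share was not tested.

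**Figure D3:**
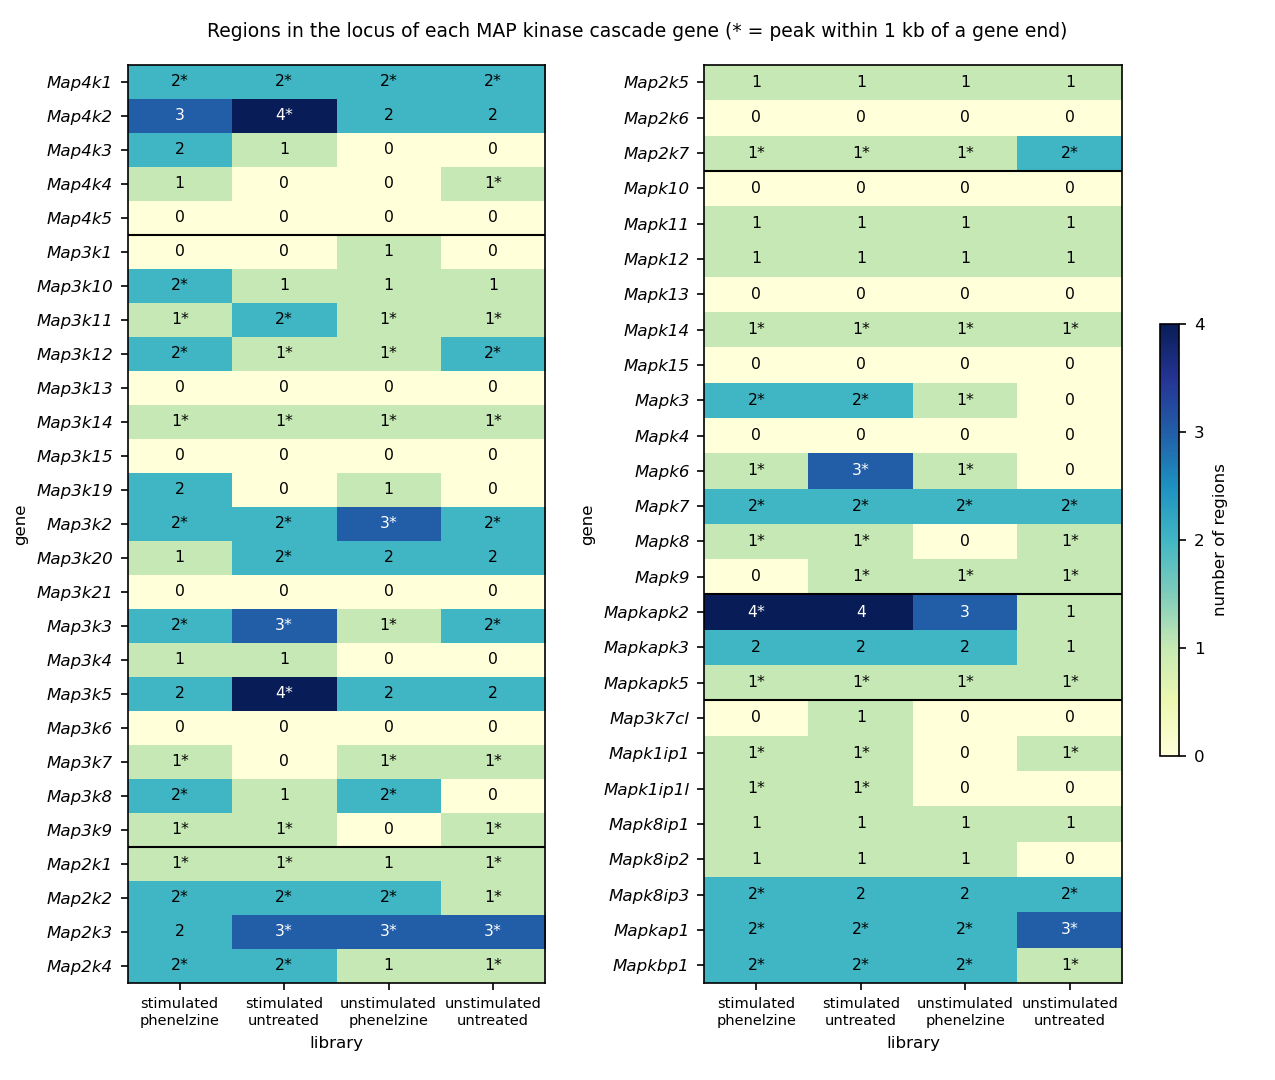
Number of regions in the locus of 53 of the 54 genes (rows) in each library (columns), shaded from 0 to 4, with an asterisk where a peak lay within 1 kb of a gene end. Lines separate the tiers, and 10 genes are at 0 in every library while Map4k2, Map3k5 and Mapkapk2 reach 4.

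Each peak has a fold enrichment over local background and a −log10 q, which are the authors' values and rank a peak only within its own list. In the ERK branch, which PMA drives most directly, Mapk3 (ERK1) had a gene-end peak at chr7:126759447-126759579 in 3 lists, with fold 4.11 in stimulated phenelzine, 4.32 in stimulated untreated and 5.19 in unstimulated phenelzine cells. It had no region in unstimulated untreated cells. A second region, at the end of the neighbouring gene Ypel3, was held by both stimulated lists and by neither unstimulated list, with fold 5.22 with phenelzine and 4.48 without.

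The MAP2K genes above ERK differed from each other. Map2k2 (MEK2) had a gene-end peak in all 4 lists, with −log10 q of 4.23 in stimulated phenelzine, 4.58 in stimulated untreated, 3.55 in unstimulated phenelzine and 6.57 in unstimulated untreated cells. For Map2k1 (MEK1), whose promoter is printed above, the values were 7.53 in stimulated phenelzine, 4.91 in stimulated untreated and 4.66 in unstimulated untreated cells, and the unstimulated phenelzine list held none. The Map2k1 peak ranked 418 of 9322 in the stimulated phenelzine list. Map3k8 (TPL2), a MAP3K that activates MEK in immune cells, had a gene-end peak in both phenelzine lists and in neither untreated list, with −log10 q of 1.61 in stimulated and 4.28 in unstimulated cells. With lists of equal size, or −log10 q of at least 3, only the unstimulated phenelzine list held it. Regions in both phenelzine lists alone made up 3.19% of those in these loci, against 2.45% of all regions.

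In the JNK branch 1 of the 2 direct activators and neither of the 2 broadly expressed JNK genes had a gene-end peak throughout. Map2k7 (MKK7) had a gene-end peak in all 4 lists, at fold 5.27 in stimulated phenelzine, 6.66 in stimulated untreated, 6.68 in unstimulated phenelzine and 5.72 in unstimulated untreated cells, while Map2k4 (MKK4) had one in all but unstimulated phenelzine cells. Mapk8 (JNK1) lacked one in unstimulated phenelzine cells too, with −log10 q of 1.25 in stimulated phenelzine, 3.78 in stimulated untreated and 2.89 in unstimulated untreated cells. Mapk9 (JNK2) lacked it instead in stimulated phenelzine cells, with −log10 q of 4.26 in stimulated untreated, 5.37 in unstimulated phenelzine and 2.00 in unstimulated untreated cells. Mapk10 (JNK3), known as the neuronal form, had no region in any list. Among the scaffolds, Mapk8ip3 (JIP3) had a gene-end peak in stimulated phenelzine and unstimulated untreated cells, with −log10 q of 5.06 and 3.53, and in neither of the other lists. Mapkap1 (SIN1) had one in all 4, with −log10 q of 4.50 in stimulated phenelzine, 5.14 in stimulated untreated, 5.56 in unstimulated phenelzine and 4.68 in unstimulated untreated cells. Mapk1ip1, whose product is named for binding a MAP kinase, had one in all but unstimulated phenelzine cells, with −log10 q of 3.39 in stimulated phenelzine, 1.53 in stimulated untreated and 5.38 in unstimulated untreated cells, and this region was also at the end of Ppp2r2d.

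In the p38 branch Mapk14 (p38 alpha) had a gene-end peak in every list, with fold 4.77 in stimulated phenelzine, 5.29 in stimulated untreated, 5.01 in unstimulated phenelzine and 4.46 in unstimulated untreated cells. Mapk11 and Mapk12 shared their only region, which lay at the ends of Tubgcp6 and Hdac10, and Mapk13 had none. Map2k3 (MKK3) had a gene-end peak in all lists but stimulated phenelzine and a region inside the gene in all 4, while Map2k6 (MKK6) had no region. Mapkapk2 (MK2), a kinase that p38 activates and that stabilises cytokine mRNAs, had 4 regions in stimulated phenelzine, 4 in stimulated untreated, 3 in unstimulated phenelzine and 1 in unstimulated untreated cells. Its gene-end peak, chr1:131097878-131097951, was in the stimulated phenelzine list alone, with fold 4.69. Mapkapk3 had no gene-end peak, and its stronger region lay at the end of Cish, a cytokine-induced inhibitor gene, with fold 7.16 in stimulated phenelzine, 5.37 in stimulated untreated, 6.39 in unstimulated phenelzine and 4.99 in unstimulated untreated cells. Mapkapk5 (PRAK) had a gene-end peak in every list, with −log10 q of 4.93 in stimulated phenelzine, 8.32 in stimulated untreated, 3.58 in unstimulated phenelzine and 8.63 in unstimulated untreated cells. It ranked next to Map4k1 in both untreated lists.

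In the ERK5 branch Mapk7 (ERK5) and the MAP3K genes above it, Map3k2 and Map3k3, had a gene-end peak in all 4 lists. Map2k5 (MEK5) had 1 region in each list, in its flank and at the end of a neighbouring gene. Of the kinases classed as atypical, Mapk6 (ERK3) had 1 region in stimulated phenelzine, 3 in stimulated untreated, 1 in unstimulated phenelzine and 0 in unstimulated untreated cells, whereas Mapk4 (ERK4) and Mapk15 had none. The gene-end peak of Mapk6 had fold 4.96 in stimulated phenelzine, 4.48 in stimulated untreated and 4.61 in unstimulated phenelzine cells.

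Among the kinases at the top of the cascades Map4k1 (HPK1), a negative regulator of T cell receptor signals, had the gene-end peak with the highest −log10 q of the set in 3 lists. At chr7:28981841-28982150 its fold was 7.68 in stimulated phenelzine, 7.68 in stimulated untreated, 5.97 in unstimulated phenelzine and 9.25 in unstimulated untreated cells, and −log10 q was 8.16 in stimulated phenelzine, 8.87 in stimulated untreated, 5.01 in unstimulated phenelzine and 11.6 in unstimulated untreated cells. In the unstimulated untreated list it ranked 86 of 6519 peaks. Map4k2, a kinase that acts above JNK, had regions numbering 3 in stimulated phenelzine, 4 in stimulated untreated, 2 in unstimulated phenelzine and 2 in unstimulated untreated cells, and 3 of its 4 regions lay in its flanks at the ends of Men1 and Sf1. Its gene-end region also lay at the end of Men1, so none of the 4 can be given to Map4k2 alone. Map4k3 (GLK), a kinase that links the T cell receptor to NF-kB, had regions numbering 2 in stimulated phenelzine, 1 in stimulated untreated, 0 in unstimulated phenelzine and 0 in unstimulated untreated cells, none at its ends. Map4k5 had none.

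Of the MAP3K genes, Map3k14 (NIK), the kinase of the non-canonical NF-kB pathway, had a gene-end peak in every list at fold 6.28 in stimulated phenelzine, 6.26 in stimulated untreated, 5.61 in unstimulated phenelzine and 6.04 in unstimulated untreated cells. Map3k11 (MLK3), an activator of JNK, had fold 5.78 in stimulated phenelzine, 6.65 in stimulated untreated, 5.02 in unstimulated phenelzine and 4.68 in unstimulated untreated cells. Map3k7 (TAK1), which relays antigen receptor and cytokine signals to NF-kB, JNK and p38, had a peak in all lists but stimulated untreated, with fold 4.56 in stimulated phenelzine, 4.53 in unstimulated phenelzine and 5.18 in unstimulated untreated cells. Map3k5 (ASK1), a kinase activated by oxidative stress, had regions numbering 2 in stimulated phenelzine, 4 in stimulated untreated, 2 in unstimulated phenelzine and 2 in unstimulated untreated cells, with its gene-end peak in stimulated untreated cells alone. The gene-end peak of Map3k20 (ZAK), a sensor of ribosome stress, was also in stimulated untreated cells alone. It lay 355 bp outside the gene and 157305 bp from the nearest listed start, with −log10 q of 1.88. Neither this peak nor that of Map3k5 was held with lists of equal size or with −log10 q of at least 3. Map3k9 and Map3k10, mixed-lineage kinase genes like Map3k11, differed, with Map3k9 lacking a gene-end peak in unstimulated phenelzine cells only and Map3k10 having it in stimulated phenelzine cells only. No list held a region for Map3k6, Map3k13, Map3k15 or Map3k21.

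**Figure D4:**
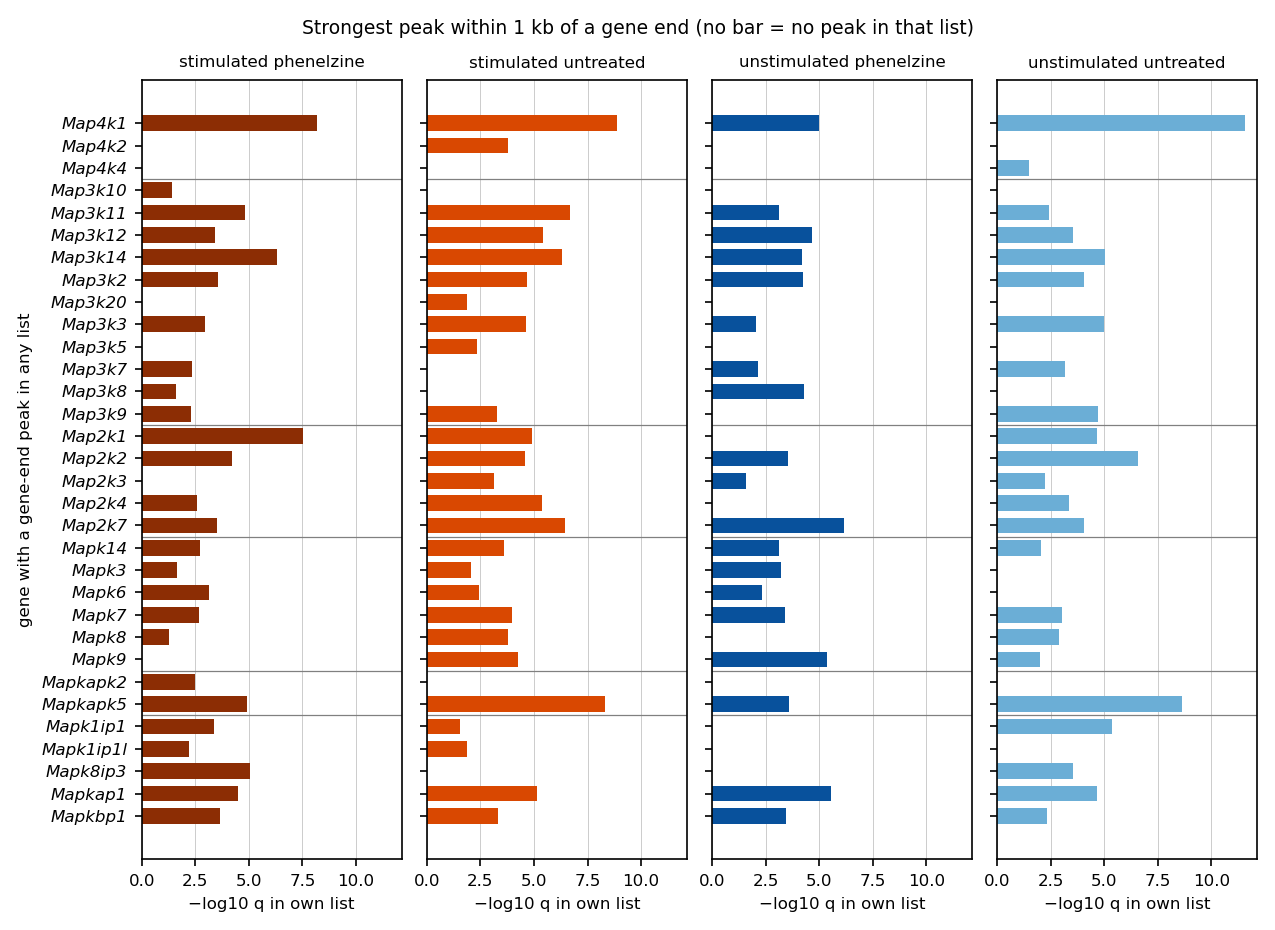
−log10 q of the strongest gene-end peak (x axis) of 32 of the 33 genes with one in any list (rows, by tier), in a panel per library. A bar shows the rank of a peak within its own list only, and a missing bar means that the list held no peak. Map4k1 has the longest bar in all panels but unstimulated phenelzine, where Map2k7 leads at 6.17.

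Stimulation was first compared in untreated cells. More regions in the locus after stimulation were counted for 17 of 54 genes (31.5%, 19.5 to 45.6), against 23.6% of all genes, and fewer for 5 (9.26%, 3.08 to 20.3), against 4.53%. Restricted to genes with a region in either list, the shares were 40.5% of 42 MAP kinase cascade genes with more, against 44.6% of all such genes, and 11.9% with fewer, against 8.55%. The share with more was thus near the background. Mapk6 and Mapkapk2 had the widest gaps, with 3 regions against 0 and 4 against 1. Mapk3, Map3k5 and Map4k2 followed, with 2 against 0, 4 against 2 and 4 against 2. With lists of equal size the differences of Mapk6, Mapkapk2 and Map4k2 were 1 each, and those of Mapk3 and Map3k5 were 0. With regions in the locus of 1 gene only, those of Mapk6, Mapkapk2 and Map3k5 were 2 each, and those of Map4k2 and Mapk3 were 0. Map2k7, Map3k7, Map3k12, Map4k4 and Mapkap1 each had 1 fewer region in stimulated cells. The median difference was 0, as over all genes.

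Gene-end peaks of Mapk3, Mapk6, Map4k2, Map3k5, Map3k20 and Mapk1ip1l were in the stimulated untreated list and not in the unstimulated untreated one. These were 6 of the 54 genes, against 8.15% of all genes, and 6 of the 27 with one in stimulated cells (22.2%, 8.62 to 42.3), against 27.9% of all such genes. Those of Map3k7, Map4k4 and Mapk8ip3 were in the unstimulated list alone, 3 of the 54, against 1.94%, and 3 of 24 with one in unstimulated cells (12.5%, 2.66 to 32.4), against 8.41%. Of the distinct regions 27 were in the stimulated list alone, 8 in the unstimulated list alone and 39 in both. The first of these was 36.5% of the regions in either list, against 43.9% over all regions, and the second 10.8%, against 10.3%. This net gain of 19 was −3 when the lists were cut to equal size, so its direction depended on the lengths of the lists. With −log10 q of at least 3 Mapkapk2 also turned, to 1 fewer region after stimulation.

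In phenelzine-treated cells 15 genes (27.8%, 16.5 to 41.6) had more regions after stimulation, against 16% of all genes, and 5 (9.26%) had fewer, against 9.56%. Among genes with a region in either list the shares were 34.9% of 43 against 30.4% with more, and 11.6% against 18.2% with fewer. Map4k3 had the widest gap, 2 regions in stimulated against 0 in unstimulated phenelzine cells. Both were in the stimulated phenelzine list alone, with −log10 q of 1.46 and 2.65. The Map4k3 difference was 1 with lists of equal size and 0 with −log10 q of at least 3. The median was 0 here too.

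Gene-end peaks in the stimulated phenelzine list and not in the unstimulated phenelzine one belonged to Map2k1, Map2k4, Map3k9, Map3k10, Mapk8, Mapkapk2, Mapk1ip1, Mapk1ip1l and Mapk8ip3. These were 9 of the 54 genes, against 5.54% of all, and 9 of the 27 with one in stimulated cells (33.3%, 16.5 to 54.0), against 20.2%. The peaks of Map2k3 and Mapk9 were in the unstimulated list alone, 2 of the 54, against 3.73%, and 2 of 20 with one there (10%, 1.23 to 31.7), against 14.6%. The intervals of both shares span the value of all genes. Distinct regions numbered 25 in the stimulated list alone, 14 in the unstimulated list alone and 38 in both. The shares were 32.5% and 18.2%, near the 31.9% and 19.9% over all regions.

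Both arms gave more regions after stimulation for 8 genes: Map4k2, Map4k3, Map3k3, Map3k4, Map2k4, Mapk3, Mapkapk2 and Mapk1ip1l. They made up 47.1% of the 17 genes of the untreated arm and 53.3% of the 15 genes of the phenelzine arm, against 30.5% and 45.0% over all genes. These are counts per locus, and at Map4k3, Map3k3, Map3k4 and Map2k4 no single region was gained in both arms. At Map4k2, Mapk3, Mapkapk2 and Mapk1ip1l a region was gained in both. Of the 5 genes with fewer in each arm 0 had fewer in both, against 15.4% and 7.30% over all genes. Of the gene-end peaks, that of Mapk1ip1l, named for its likeness to Mapk1ip1, was in both stimulated lists and in neither unstimulated list, with −log10 q of 2.2 with phenelzine and 1.89 without. This region also lay at the end of Gm35078.

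Phenelzine was compared with no drug in unstimulated cells. Here 11 genes (20.4%, 10.6 to 33.5) had more regions with phenelzine, against 15.7% of all genes, and 8 (14.8%, 6.62 to 27.1) had fewer, against 8.54%. Among genes with a region in either list the shares were 27.5% of 40 against 31.8% with more, and 20% against 17.3% with fewer. Map3k8 had 2 regions with phenelzine against 0 without, and Mapkapk2 3 against 1. The gene-end peaks of Map3k8, Mapk3 and Mapk6 were in the phenelzine list alone, 3 of the 54, against 5.9% of all genes, and 3 of 20 with one there (15%, 3.21 to 37.9), against 23.1%. Distinct regions numbered 18 in the phenelzine list alone, 13 in the untreated list alone and 34 in both. The shares were 27.7% and 20%, against 32.6% and 18.1% over all regions, and the net gain of 5 was −7 with lists of equal size.

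The gene-end peaks of 7 genes were in the untreated list and not in the phenelzine list of unstimulated cells: Map4k4, Map3k9, Map2k1, Map2k4, Mapk8, Mapk1ip1 and Mapk8ip3. They were 7 of the 54 genes, against 3.37% of all, and 7 of the 24 with one in untreated cells (29.2%, 12.6 to 51.1), against 14.6%, a share whose interval includes that of all genes. Their −log10 q in the untreated list was 5.38 for Mapk1ip1, 4.69 for Map3k9, 4.66 for Map2k1, 3.53 for Mapk8ip3, 3.37 for Map2k4, 2.89 for Mapk8 and 1.48 for Map4k4. All of these but Map4k4 had a gene-end peak in stimulated phenelzine cells. With lists of equal size the count was 8 of 24, against 19.4% of all genes, and with −log10 q of at least 3 it was 7 of 16, against 31%.

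**Figure D5:**
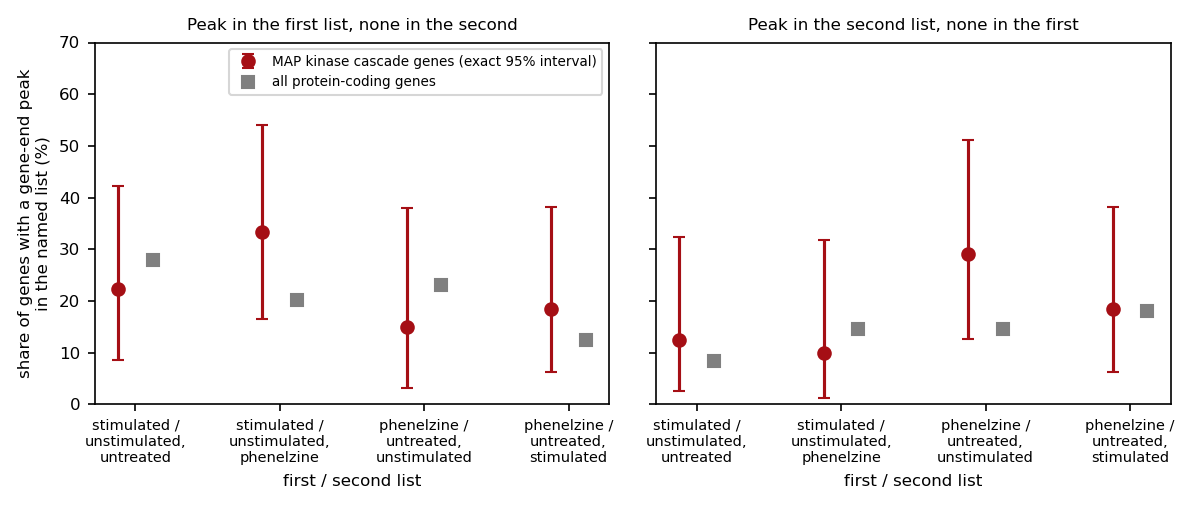
Share of genes with a gene-end peak in 1 list that lacked it in the other list of a comparison, in percent. Red points are MAP kinase cascade genes with exact 95% intervals, which cover counting error only, and grey squares are all protein-coding genes. The highest red points are 33.3% for peaks in stimulated and not unstimulated phenelzine cells and 29.2% for peaks in untreated and not phenelzine unstimulated cells, and every interval includes its grey square.

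In stimulated cells 7 genes (13.0%, 5.37 to 24.9) had more regions with phenelzine, against 10.4% of all genes, and 9 (16.7%, 7.92 to 29.3) had fewer, against 16.2%. Among genes with a region in either list the shares were 16.3% of 43 against 18.7% with more, and 20.9% against 29.4% with fewer. Map3k19, a little-studied MAP3K gene, had 2 regions with phenelzine against 0 without. Of these, 1 lay 13491 bp outside the gene at the end of Rab3gap1, and the other had −log10 q of 1.37. The Map3k19 difference was 1 with lists of equal size. It was 0 with −log10 q of at least 3 and with regions in the locus of 1 gene only. In the other direction stood Map3k5, with 2 against 4, and Mapk6, with 1 against 3. With −log10 q of at least 3 Mapk6 had 1 more region with phenelzine. With lists of equal size the differences of Map3k5 and Mapk6 were −1 and 0.

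Gene-end peaks of Map3k7, Map3k8, Map3k10, Mapkapk2 and Mapk8ip3 were in the stimulated phenelzine list and not in the stimulated untreated one, 5 of the 54, against 3.4% of all genes, and 5 of 27 with one there (18.5%, 6.30 to 38.1), against 12.4%. Those of Map4k2, Map3k5, Map3k20, Map2k3 and Mapk9 were in the untreated list alone, 5 of the 54, against 5.27%, and 5 of 27 with one there, against 18%. Distinct regions numbered 16 with phenelzine alone, 19 without it alone and 47 in both. The shares were 19.5% and 23.2%, against 21.2% and 29.5% over all regions, and the net loss of 3 was a gain of 4 with lists of equal size. Map3k8 and Map3k19 had more regions with phenelzine in both states of stimulation. They made up 18.2% of the 11 genes with more in unstimulated cells, against 18.7% over all genes. In stimulated cells they were 28.6% of 7, against 28.4%. For Map3k19 the only region common to both states was the one at the end of Rab3gap1. Map3k3 had fewer in both, with 2 against 3 in stimulated and 1 against 2 in unstimulated cells. It was 12.5% of the 8 genes with fewer in unstimulated and 11.1% of the 9 in stimulated cells. Over all genes these shares were 30.3% and 15.9%. The region that Map3k3 lacked with phenelzine was not the same in both states. In stimulated cells it lay at the end of Gm10840, with −log10 q of 1.13 in the untreated list. In unstimulated cells it lay at the end of Taco1, and both stimulated lists held it. The comparisons with phenelzine share their libraries with those of stimulation, so the 4 sets of counts are not independent.

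Genes that feed the cascades or act below them were counted from lists of other genes. Of 26 input and scaffold genes, 25 of them with a region in some list, 15 had more regions in stimulated than in unstimulated untreated cells and 0 fewer, with a median difference of 1 region, against 23.6% and 4.53% of all genes. In phenelzine-treated cells 7 had more after stimulation and 7 fewer, against 16% and 9.56% of all genes. Phenelzine went with more regions at 11 and fewer at 2 in unstimulated cells, against 15.7% and 8.54% of all genes. In stimulated cells it went with more at 1 and fewer at 11, against 10.4% and 16.2%. With lists of equal size the counts for stimulation in untreated cells were 6 more and 4 fewer, and those for phenelzine in stimulated cells 6 more and 4 fewer, the opposite balance. Only 58.1% of all genes had a region, so genes with a region are the closer comparison. In the full lists, of all genes with a region in either list, 44.6% had more and 8.55% fewer for stimulation in untreated cells. These shares were 30.4% and 18.2% for stimulation with phenelzine. For phenelzine they were 31.8% and 17.3% in unstimulated and 18.7% and 29.4% in stimulated cells. Spred2 and Spry2 encode inhibitors of Ras and ERK signalling. Spred2 had 1 region in stimulated phenelzine and 3 in stimulated untreated cells, Spry2 had 1 and 2 there, and both had 0 in the unstimulated lists. Other Spred and Spry genes of the list differed. Spred1 had 1 region in each list but unstimulated untreated, where it had 0. Spry1 had 1 in each untreated list and 0 in each phenelzine list. The gene of the PMA-responsive Ras activator RasGRP1, Rasgrp1, had none.

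Of 12 genes for dual-specificity phosphatases, most of which inactivate MAP kinases, stimulation in untreated cells went with more regions at 5 and fewer at 0, against 23.6% and 4.53% of all genes, or at 1 and 1 with lists of equal size. In phenelzine-treated cells 3 had more and 3 fewer, against 16% and 9.56% of all genes. With phenelzine 5 had more and 0 fewer in unstimulated cells, against 15.7% and 8.54%, and 3 more and 2 fewer in stimulated cells, against 10.4% and 16.2%. Of the 12 genes 10 had a region in some list, so the shares above for genes with a region are the closer comparison. Dusp1, an early response gene, had 0 regions in stimulated phenelzine, 3 in stimulated untreated, 1 in unstimulated phenelzine and 1 in unstimulated untreated cells. Dusp4 and Dusp5 had 1 in each.

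Of 18 genes for substrates of the cascades 12 had more regions in stimulated than in unstimulated untreated cells and 0 fewer, with a median of 1, against 23.6% and 4.53% of all genes. With lists of equal size 6 had more and 3 fewer. In phenelzine-treated cells 7 had more and 1 fewer, against 16% and 9.56%. With phenelzine 5 had more and 2 fewer in unstimulated cells, against 15.7% and 8.54%. In stimulated cells 5 had more and 9 fewer, with a median of −0.5, against 10.4% and 16.2% of all genes. Here 17 of the 18 genes had a region in some list, so the shares for genes with a region are again the closer comparison. The ternary complex factor gene Elk4, whose product ERK phosphorylates, had 2 regions in stimulated phenelzine, 1 in stimulated untreated and 0 in both unstimulated lists. Elk3 had 1, 2, 0 and 0 in stimulated phenelzine, stimulated untreated, unstimulated phenelzine and unstimulated untreated cells. Elk1 differed, with 2, 1, 2 and 0 in that order. The ERK-activated kinase gene Mknk2 had regions numbering 2 in stimulated phenelzine, 4 in stimulated untreated, 1 in unstimulated phenelzine and 1 in unstimulated untreated cells.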

How the data were processed

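ATAC-seq was done on CD8+ T cells in 4 conditions with 1 library each. The genome build was mm10 and the tools included MACS2, HOMER, Picard, Bowtie2 2.2.5 and Trimmomatic 0.33, per the submitters' processing notes. The sources used here do not give other versions, parameters or filters. Peaks were called per library. The peak names carry the tag less120, whose meaning is not spelled out, and if it is a limit on fragment length the lists describe short fragments only. The fold enrichment that the authors deposited for each peak is a ratio to local background, and the deposited q-value of each peak is on the −log10 scale.

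Only peaks of autosomes and chromosome X entered, with coordinates counted from 1, merged at 1 bp of overlap, and assigned to GRCm38.p6 RefSeq genes. The work used Python 3.11.15, pandas 2.3.3, numpy 2.4.6, scipy 1.17.1 and matplotlib 3.10.9, and merging and assignment were tested on simulated data. Since each condition has a single library, conditions were not tested against each other. The 95% intervals of shares are exact (Clopper-Pearson). Peak lists give no read depth. Members and gene lists were chosen with earlier results of these data known. Genes named were, per list, those with the strongest gene-end peaks and, per comparison, those differing by at least 2 regions or with a gene-end peak in 1 list alone, plus counts by tier. Genes of the input, phosphatase and substrate lists were named as examples, outside this rule. Alternatives were the end window, the locus width, list length, −log10 q, overlap rules and start sites alone. The values of 1 member are not reported here, but it is part of the counts.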

Additional observations from a re-analysis of the deposited data

Results flagged for a closer look

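For 3 genes the number of regions in the locus differed in opposite directions between the arms of a comparison, each arm being 1 library against 1, and the difference between arms was not tested. The share of all genes that did so is not given here, so this count has no background. Map3k12 (DLK) had 1 more region in stimulated than in unstimulated phenelzine cells and 1 fewer (−1) in stimulated than in unstimulated untreated cells. Against untreated cells phenelzine went with 1 more region at Map3k12 in stimulated and 1 fewer (−1) in unstimulated cells. A single region, 1656 bp outside the gene, made this difference, with fold 4.07 in stimulated phenelzine and 4.42 in unstimulated untreated cells. Map4k4 (HGK) gave the same differences, 1 and −1 for stimulation with and without phenelzine and 1 and −1 for phenelzine with and without stimulation, from 2 weak regions with −log10 q of 1.1 in stimulated phenelzine and 1.48 in unstimulated untreated cells. Mapk6 had 2 fewer regions (−2) with phenelzine in stimulated cells and 1 more in unstimulated cells.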

How the results depend on the processing

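No paired analysis was possible because each condition has 1 library. A window of 500 bp, the start site alone, or a peak lying in the window by most of its length left the counts of genes with a gene-end peak within 1.5 times, and so did equal lists. With −log10 q of at least 3 that count was 15 in stimulated phenelzine cells, beside 16.9% of all genes, against 27 beside 27.4% in the full list. No interval is given at this cut, so whether its share lies above that of all genes is not shown. Leaving out the 8 genes that are not cascade kinases, a choice made after the data were seen, moved neither the gene-end counts nor those of genes with more or fewer regions by over 1.5 times. The numbers of genes with more or fewer regions were sensitive. For stimulation in untreated cells 9 genes had more and 3 fewer with the body alone (12.4% and 2.53% of all genes), 8 and 10 with equal lists (12.1% and 10.7%), and 6 and 3 with regions in the locus of 1 gene only (7.63% and 1.44%). For stimulation with phenelzine 9 had more and 8 fewer with −log10 q of at least 3 (11.7% and 7.26%), 9 and 3 with equal lists (11% and 10.7%), 6 had more with regions of 1 gene only (5.4%), and 12 fewer with 50 kb (13%). For phenelzine in unstimulated cells 18 had more with 50 kb (22.8%), 7 more and 5 fewer with the body alone (8.22% and 4.49%), 5 and 13 with equal lists (11.3% and 11.2%), and 6 and 4 with regions of 1 gene only (4.93% and 2.46%). For phenelzine in stimulated cells 15 had fewer with 50 kb (22.8%) and 4 with regions of 1 gene only (5.37%).

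The net number of distinct regions for stimulation in untreated cells was 30 with 50 kb, 8 with the body alone, 10 with −log10 q of at least 3, 6 with regions of 1 gene only and −3 with equal lists. For stimulation with phenelzine it was 3, 4, 1 and 3 under the first 4 of these. With equal lists it was 8, beside 11 in the full lists, and the net number over all regions was also 8. For phenelzine in unstimulated cells it was 16, 2, 3, 3 and −7 in that order, equal lists being last. For phenelzine in stimulated cells it was −11 with 50 kb, −6 with −log10 q of at least 3, 0 with regions of 1 gene only and 4 with equal lists. Lists of equal length hold equal numbers of peaks by construction. Regions held by all 4 lists numbered 46 with 50 kb, 14 with the body alone and 11 with −log10 q of at least 3. Mapkapk2 turned to −1 for stimulation in untreated cells, and Mapk6 to 1 for phenelzine in stimulated cells, at −log10 q of at least 3. Of 40 gene-end peaks in 1 list of a comparison alone, 29 were so with equal lists and 18 with −log10 q of at least 3. Of 11 differences of at least 2 regions, 1 was unchanged and 4 were 0 with equal lists, and 1 was unchanged, 6 were 0 and 2 reversed with −log10 q of at least 3.

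Equal lists were an alternative for the pathway lists that was chosen after the data were seen. They gave 6 input and scaffold genes with more and 4 with fewer regions for stimulation in untreated cells. For stimulation with phenelzine 3 had more and 5 fewer. For phenelzine 7 had more and 2 fewer in unstimulated cells, and 6 had more and 4 fewer in stimulated cells. Phosphatase genes numbered 1 with more and 1 with fewer for stimulation in untreated cells, and 2 and 1 for stimulation with phenelzine. For phenelzine they numbered 2 with more and 2 with fewer in unstimulated cells, and 2 and 1 in stimulated cells. Substrate genes numbered 6 with more and 3 with fewer for stimulation in untreated cells, and 5 and 3 for stimulation with phenelzine. For phenelzine they numbered 4 with more and 5 with fewer in unstimulated cells, and 4 and 5 in stimulated cells. The shares of all genes with equal lists lay between 10.7% and 12.1%.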

Other observations

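Of the 34 regions in the flanks of MAP kinase cascade loci 19 lay within 1 kb of the end of a gene outside the set. Some were stronger than the peaks at the ends of the kinase genes. A region 10826 bp from Mapk8ip3, at the ends of Nubp2 and Spsb3, had fold 5.91 in stimulated phenelzine, 8.58 in stimulated untreated, 7.23 in unstimulated phenelzine and 5.32 in unstimulated untreated cells. Its −log10 q of 11.6 in stimulated untreated cells was above that of every gene-end peak of the set in that list. At the end of Sf1, a splicing factor gene, a region 8852 bp from Map4k2 had fold 7.73 in stimulated phenelzine, 4.76 in stimulated untreated, 4.98 in unstimulated phenelzine and 4.87 in unstimulated untreated cells. Counts of regions per locus for Mapk8ip1, Mapk11, Mapk12 and Map2k5 rested on such regions alone.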
